A study of Mus musculus with 4 samples.

Results

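The genes of the Id proteins (Id1, Id2, Id3 and Id4) and of the E proteins (Tcf3, Tcf4 and Tcf12) were followed through 4 cell populations of the mouse aorta-gonad-mesonephros (AGM) region, where the first hematopoietic stem cells form. The 7 genes were taken by name from a table of 51205 genes, and all 7 were in it. E proteins are basic helix-loop-helix (bHLH) transcription factors that bind the E-box, a short DNA motif, either with one another or with tissue-restricted bHLH partners such as Tal1 and Lyl1 in blood-forming cells. Id proteins have the helix-loop-helix through which these factors pair but lack the basic region that holds DNA, so that an E protein bound by an Id protein is kept from its sites. Id genes are well-known targets of BMP signalling through SMAD proteins and are active in endothelium, and E proteins are best known for their part in lymphocyte development.

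Cells were sorted by flow cytometry from the AGM of embryos at embryonic day 11 (E11), with 1 bulk RNA-seq library for each population. All embryos carried the Runx1-IRES-GFP reporter on a C57BL/6J background, in which GFP marks transcription of Runx1, the transcription factor needed for blood cells to arise from endothelium. The labels give the genotype as WT, whereas according to its supplement the study pooled Runx1-GFP/GFP with Runx1-GFP/+ embryos. Every gate excluded NG2 and PDGFRB, which mark pericytes, and required CD31, which marks endothelium. Runx1+ IAHCs, cells of the intra-aortic hematopoietic clusters, were ckit+ and Runx1(GFP)+, and Runx1- IAHCs were ckit+ and Runx1(GFP)-, both with no gate on CD45. HECs, which the study names hemogenic endothelial cells, were ckit-CD45-Runx1(GFP)+. ECs, which it names endothelial cells, were ckit-CD45-Runx1(GFP)-. ECs were sorted in by far the largest number and Runx1- IAHCs in by far the smallest, so that all levels in Runx1- IAHCs rest on few cells. The spread that comes from sampling few cells is not covered by the intervals given below. No population had a replicate, so there was no test between populations, and the intervals below are 95% counting intervals that cover the error of counting reads alone.

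Levels are given in TPM, in which reads are scaled to gene length and library total. They rested on 14384774 recovered reads in Runx1+ IAHCs, 15917924 in Runx1- IAHCs, 15310845 in HECs and 12420598 in ECs. The genes behind the gates followed them, with Kit, which encodes ckit, at 34.5 TPM in Runx1+ IAHCs, where HECs had 1.09 TPM, and at 62.1 TPM in Runx1- IAHCs, where ECs had 9.69 TPM. Runx1 was at 10.1 TPM in Runx1+ IAHCs against 0.128 TPM in Runx1- IAHCs, and 13.0 TPM in HECs against 0.311 TPM in ECs. Marker genes of other cell types were far from even, and the libraries stand for their gates and not for pure cell types. Summed over 8 endothelial markers, of which each had reads in every library, the level was 112 TPM in Runx1+ IAHCs against 2039 TPM in Runx1- IAHCs, and 274 TPM in HECs against 1924 TPM in ECs. Of the Runx1- IAHC sum, 1196 TPM was Cldn5 alone, which was at 355 TPM in ECs. Over 6 hematopoietic markers it was 2030 TPM in Runx1+ IAHCs, 32.1 TPM in Runx1- IAHCs, where Ptprc, Tyrobp and Cd52 had no read, and 2672 TPM in HECs against 60.2 TPM in ECs. Of the HEC sum, 2033 TPM was Fcer1g alone, which was at 562 TPM in Runx1+ IAHCs. Ptprc was at 0.246 TPM in HECs against 11.4 TPM in Runx1+ IAHCs, and Tyrobp at 239 TPM against 734 TPM. Over the 6 markers the median difference of log2(TPM + 1) of Runx1+ IAHCs from HECs was 1.34. The HEC library held 5 megakaryocyte and platelet markers at a sum of 51600 TPM. The same markers came to 113 TPM in Runx1+ IAHCs, 46.5 TPM in Runx1- IAHCs, where Ppbp and Gp9 had no read, and 409 TPM in ECs. The library labelled Runx1- IAHC held 5 germ cell markers at a sum of 5997 TPM, against 1.18 TPM in Runx1+ IAHCs, where Dppa3, Dppa5a and Utf1 had no read, 12.5 TPM in HECs, where Pou5f1 had none, and 631 TPM in ECs. The sum of 5 erythroid markers was 152 TPM in Runx1+ IAHCs against 185 TPM in Runx1- IAHCs, and 12780 TPM in HECs against 9064 TPM in ECs. In bulk libraries, fewer cells of a type and less RNA per cell cannot be told apart.

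The DNA in front of 2 of the genes is shown because E proteins act through the E-box and BMP-activated SMADs through GC-rich elements. Promoter windows from RefSeq (GRCm38.p6) were matched for 5 of the 7 genes, and the 250 bases before each start were searched on both strands for the E-box CANNTG, for its form CAGGTG, for the GC-rich element GGCGCC and for the RUNX motif TGTGGT. The sequences run 5′ to 3′ on the strand of the gene, up to the first annotated exon, with E-boxes and GGCGCC in capitals. Neither motif overlapped the other.
Id2 (chr12:25096254-25096342, minus strand, 89 bases, inside an intron of a longer annotated transcript): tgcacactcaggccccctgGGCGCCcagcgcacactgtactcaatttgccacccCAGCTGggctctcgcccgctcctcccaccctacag
Tcf3 (chr10:80433648-80433885, minus strand, 238 bases): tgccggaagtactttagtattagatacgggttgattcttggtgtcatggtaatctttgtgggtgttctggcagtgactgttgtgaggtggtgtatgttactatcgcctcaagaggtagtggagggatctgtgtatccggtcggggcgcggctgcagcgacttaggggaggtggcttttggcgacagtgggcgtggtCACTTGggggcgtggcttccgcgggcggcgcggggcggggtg

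The Id2 window held 1 E-box, CAGCTG, and 1 GGCGCC, and the Tcf3 window held 1 E-box, CACTTG. The window of Id3, which lay within the annotated gene, matched none of these motifs, and that of Id4 held 1 GGCGCC and no E-box. Of the 3 windows of Tcf12, 2 held 1 E-box each. Among 32851 promoters, 66.2% held CANNTG, 17.2% CAGGTG, 9.59% GGCGCC and 14.0% TGTGGT, so that an E-box in a window is common. No window of the 5 genes held CAGGTG or TGTGGT.

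Id1, Id2 and Id3 ranked among the abundant transcripts of ECs, and the Id genes differed from one another across the other populations. Id1, Id2 and Id3 were all highest in ECs, and their order below ECs was not shared. Id3 (ENSMUSG00000007872, GRCm38 chromosome 4, 136143497 to 136145755) was at 16.0 TPM in Runx1+ IAHCs (counting interval 14.2 to 17.9), 389 TPM in Runx1- IAHCs (379 to 398), 39.0 TPM in HECs (36.2 to 41.9) and 567 TPM in ECs (555 to 579). Both Runx1- populations were thus high and both Runx1+ populations low, with no overlap of the intervals. By level, Id3 was number 5067 of all genes in Runx1+ IAHCs, 415 in Runx1- IAHCs, 3004 in HECs and 241 in ECs. In ECs Id1 was number 851 and Id2 number 753.

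Id1 (ENSMUSG00000042745, chromosome 2, 152736251 to 152737410), a regulator of endothelial growth, was at 56.4 TPM in Runx1+ IAHCs (52.1 to 60.7), 81.8 TPM in Runx1- IAHCs (76.4 to 87.3), 21.6 TPM in HECs (19.0 to 24.3) and 166 TPM in ECs (158 to 174). HECs had the lowest level, and the 4 intervals did not overlap. Id2 (ENSMUSG00000020644, chromosome 12, 25093799 to 25097140), known for its need in natural killer cells and other innate lymphoid cells, was at 51.4 TPM in Runx1+ IAHCs (48.5 to 54.2), 57.2 TPM in Runx1- IAHCs (54.1 to 60.3), 14.9 TPM in HECs (13.4 to 16.5) and 194 TPM in ECs (188 to 200). Id2 had the same order of libraries as Id1, but the intervals of the 2 IAHC populations overlapped at their ends. Id4 (ENSMUSG00000021379, chromosome 13, 48261228 to 48266026), best known in the nervous system and in male germline stem cells, was low throughout. Runx1+ IAHCs had 6 reads of Id4 (0.179 TPM), HECs 17 reads (0.448 TPM) and ECs 104 reads (3.24 TPM). The Runx1- IAHC library had no read of it, where 3 reads would be 0.0840 TPM and the counting interval reached 0.103 TPM.

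The E protein genes were less abundant than the 3 main Id genes in ECs. Tcf3 (ENSMUSG00000020167, chromosome 10, 80409514 to 80433647), which encodes the E2A proteins E12 and E47, was the 1 gene of the 7 that was highest in Runx1- IAHCs. It was at 18.5 TPM in Runx1+ IAHCs (17.2 to 19.8), 43.0 TPM in Runx1- IAHCs (40.9 to 45.1), 6.26 TPM in HECs (5.50 to 7.03) and 24.6 TPM in ECs (23.0 to 26.3). The intervals of the 4 libraries did not overlap.

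Tcf4 (ENSMUSG00000053477, chromosome 18, 69343356 to 69689079), which encodes E2-2, the E protein needed for plasmacytoid dendritic cells, was at 3.77 TPM in Runx1+ IAHCs (3.54 to 4.00), 11.5 TPM in Runx1- IAHCs (11.04 to 11.87), 2.00 TPM in HECs (1.84 to 2.17) and 22.0 TPM in ECs (21.4 to 22.6). Its libraries stood in the order of Id1 and Id2, with ECs highest and HECs lowest. Tcf12 (ENSMUSG00000032228, chromosome 9, 71842688 to 72111871), which encodes HEB, an E protein of developing T cells, varied least of the 7. It was at 5.44 TPM in Runx1+ IAHCs (5.07 to 5.81), 6.42 TPM in Runx1- IAHCs (6.01 to 6.84), 6.47 TPM in HECs (6.08 to 6.87) and 13.5 TPM in ECs (12.9 to 14.2). HECs and Runx1- IAHCs did not differ beyond counting error in Tcf12, with a ratio of 1.01 (0.922 to 1.10), the only pair of libraries for which the interval of a ratio included 1 in any of the 7 genes. Tcf12 overlapped 11 other annotated genes, 4 of them on the other strand and the most abundant at 578 TPM, and the libraries carry no strand, so its level is less certain. Tcf4 overlapped 1 other gene, on its own strand and at up to 2.18 TPM, and Id4 overlapped 2 on the other strand at up to 0.191 TPM. Id1, Id2, Id3 and Tcf3 overlapped no other gene.

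**Figure D1:**
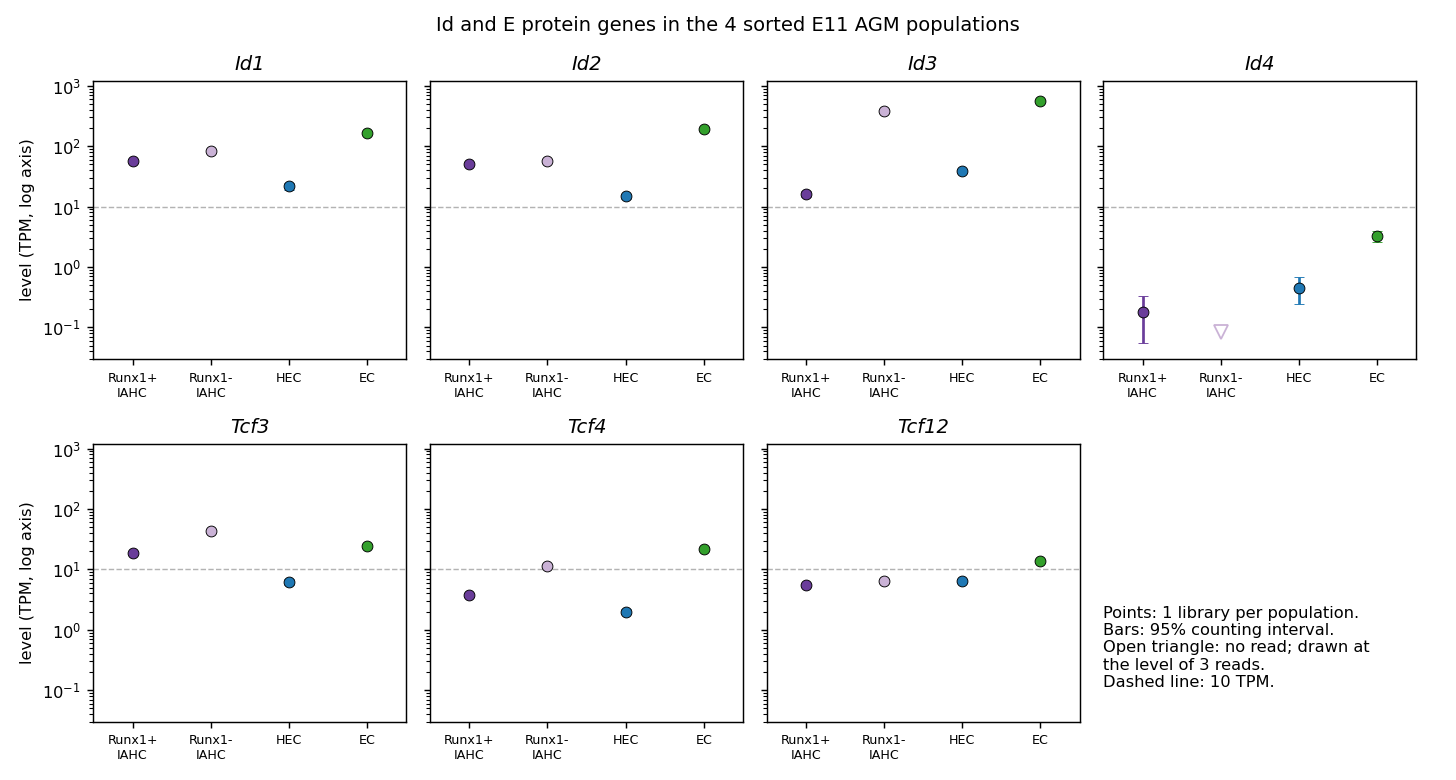
Levels of the 4 Id genes and 3 E protein genes in TPM (log axis), with 1 point for the library of each population and bars for the 95% counting interval. Id3 is high in Runx1- IAHCs (389 TPM) and ECs (567 TPM) and low in Runx1+ IAHCs (16.0 TPM) and HECs (39.0 TPM), whereas Tcf12 stays between 5.44 and 13.5 TPM.

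HECs were set against ECs to describe the Runx1(GFP)+ side of the ckit-CD45- gate. All 3 main Id genes and Tcf4 were at least 4-fold lower in HECs, and no Id or E protein gene was higher. A gene was compared if the higher of its 2 levels was at least 10 TPM, by the difference of log2(TPM + 1), which understates the difference of low genes, and a gene was called where it was at least 4-fold apart on that scale. Folds are ratios of recovered reads after scaling each library as in its TPM values. Id3 was 14.6-fold lower in HECs (13.5 to 15.7; log2 difference -3.83), Id2 13.0-fold lower (11.7 to 14.5; -3.61) and Id1 7.69-fold lower (6.74 to 8.80; -2.88). Tcf4 was at 0.0909 of its EC level (0.0832 to 0.0991; -2.94), and a pseudocount of 5 in place of 1 ended its call (-1.95). Tcf3 was 3.95-fold lower (3.43 to 4.55; -1.82), just short of the call. Tcf12 was 2.09-fold lower (1.93 to 2.26; -0.96). Id4 was under 10 TPM in both libraries and not compared, with a ratio 7.58-fold lower in HECs (4.51 to 13.5).

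Thus 4 of the 6 genes compared were called lower in HECs. Of all 7793 genes compared, 9.24% were called lower and 8.87% higher (18.1% in either direction), and the median difference over all of them was 0.12. The endothelial markers moved with these genes, since 6 of 8 were called lower in HECs with a median difference of -2.89, and their part in the lower Id and Tcf4 levels was not tested. The megakaryocyte and platelet markers, all 5 of them called higher in HECs, came to the 51600 TPM given above, and their part was not tested either.

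Runx1+ IAHCs were set against Runx1- IAHCs to describe the Runx1+ side of the ckit+ cells. Id3 was the only one of the genes that was called, 24.4-fold lower in Runx1+ IAHCs (21.7 to 27.5; log2 difference -4.52). Id1 and Id2, which were called lower together with Id3 in HECs, were close to even between the 2 IAHC libraries. Id1 was 1.45-fold lower in Runx1+ IAHCs (1.31 to 1.61; -0.53) and Id2 1.11-fold lower (1.03 to 1.20; -0.15). For Id2 the direction was not stable, since scaling the libraries by median ratios gave a difference of 0.20.

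Among the E proteins, Tcf4 was 3.04-fold lower in Runx1+ IAHCs (2.83 to 3.27; -1.38) and Tcf3 2.32-fold lower (2.13 to 2.54; -1.17), both short of the call. Tcf12 and Id4 were under 10 TPM in both IAHC libraries and not compared. The 1 call among 5 genes stood beside 17.5% of all 8726 genes called lower and 5.60% called higher (23.1% in either direction), with a median difference of -0.53, so that most genes leaned the same way. Of the endothelial markers 7 of 8, and of the germ cell markers all 5, were called lower in Runx1+ IAHCs, and their part in the low Id3 was not tested.

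Runx1+ IAHCs were set against HECs as the 2 Runx1(GFP)+ populations, which differ in ckit and in the CD45 gate. Id1 and Id2 were higher in Runx1+ IAHCs while Id3 was lower, and none reached the call. Id2 was 3.45-fold higher in Runx1+ IAHCs (3.07 to 3.88; log2 difference 1.72) and Id1 2.61-fold higher (2.26 to 3.03; 1.34). Id3 was 2.44-fold lower (2.13 to 2.81; -1.23). Tcf3 was 2.96-fold higher in Runx1+ IAHCs (2.57 to 3.42; 1.43), whereas Tcf4, Tcf12 and Id4 were under 10 TPM in both libraries. With 0 of 4 genes called, the background was 2.79% of 7279 genes called higher and 6.22% called lower (9.01% in either direction), at a median difference of 0.19. Of the endothelial markers 3 of 7 compared, and of the megakaryocyte and platelet markers all 5, were called lower in Runx1+ IAHCs (medians -1.71 and -6.34), and their part in these differences was not tested.

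Runx1- IAHCs were set against ECs as the 2 Runx1(GFP)- populations. The 3 main Id genes were lower in Runx1- IAHCs and Tcf3 was higher, again with 0 of 6 genes called, although scaling by median ratios brought Id2 to -2.15. Id2 was 3.39-fold lower in Runx1- IAHCs (3.19 to 3.61; log2 difference -1.74), Id1 2.03-fold lower (1.87 to 2.20; -1.01) and Id3 1.46-fold lower (1.41 to 1.51; -0.54). Tcf3 was 1.74-fold higher (1.60 to 1.90; 0.78), close to the median difference of 0.71 over all genes. Tcf4 was 1.92-fold lower in Runx1- IAHCs (1.84 to 2.01; -0.89) and Tcf12 2.10-fold lower (1.94 to 2.28; -0.97). Id4 was not compared because it was under 10 TPM in both libraries. At the floor of 3 reads it was 38.1-fold lower in Runx1- IAHCs, and its counting interval began at 30.5-fold. That interval does not cover transcripts missed in a library of few cells. In this pair 6.39% of 8936 genes were called lower and 20.9% higher (27.3% in either direction). The endothelial markers were near even (median -0.22, with 1 of 8 called lower), and all 5 germ cell markers were called higher in Runx1- IAHCs (median 3.96). The part of the germ cell markers in these differences was not tested.

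**Figure D2:**
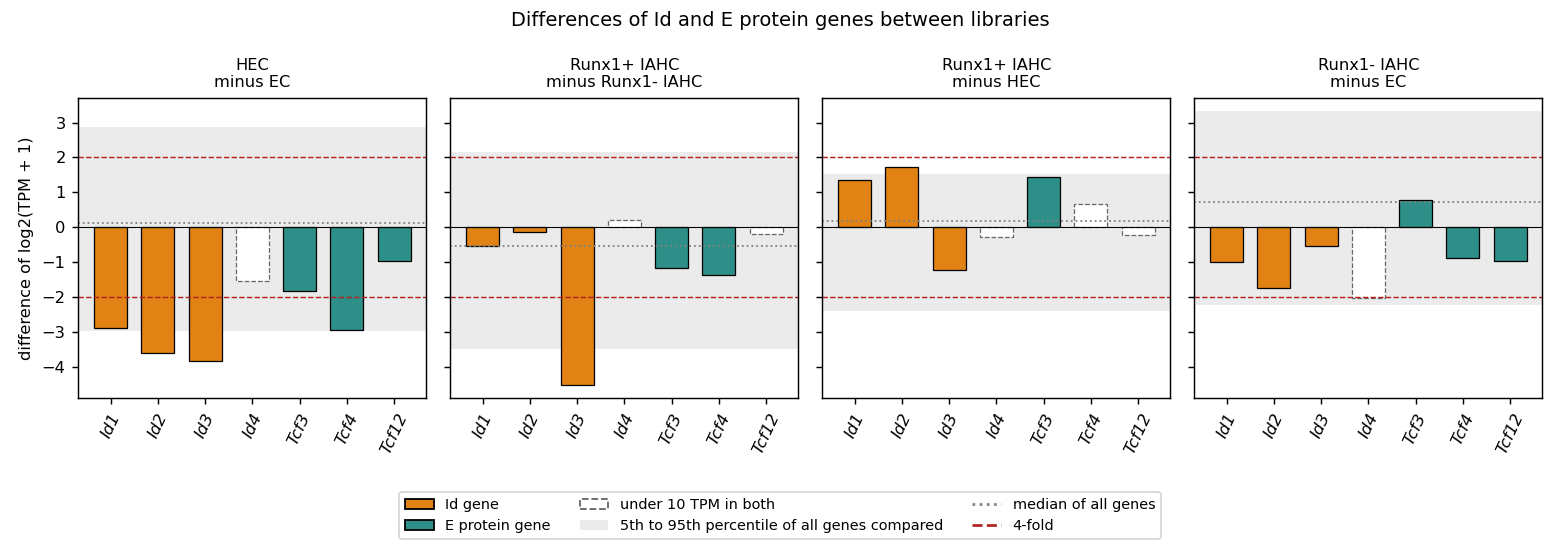
Differences of log2(TPM + 1) of the Id genes (orange) and E protein genes (green) in the 4 comparisons, with the 4-fold limits at -2 and 2 (dashed), the 5th to 95th percentile of all genes compared (grey) and open bars for genes under 10 TPM in both libraries. Id2 at -3.61 and Id3 at -3.83 in HECs against ECs, and Id3 at -4.52 in Runx1+ against Runx1- IAHCs, lie below the grey range, and no bar of the other 2 comparisons that is filled passes the 4-fold limits.

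The make-up of the Id family was different in Runx1+ IAHCs from that in the other libraries. Id3 made up 12.9% of the summed Id TPM in Runx1+ IAHCs, 73.7% in Runx1- IAHCs, 51.3% in HECs and 61.0% in ECs. Id1 made up 45.5% in Runx1+ IAHCs, 15.5% in Runx1- IAHCs, 28.5% in HECs and 17.8% in ECs, and Id2 made up 41.4%, 10.8%, 19.6% and 20.8% in the same order of libraries. The ratio of Id3 to Id1 and Id2 together, which does not depend on the library total, was 0.149 in Runx1+ IAHCs (0.131 to 0.168), 2.80 in Runx1- IAHCs (2.66 to 2.94), 1.07 in HECs (0.957 to 1.19) and 1.58 in ECs (1.52 to 1.63). Id3 was therefore the most abundant Id gene in Runx1- IAHCs, HECs and ECs, and Id1 and Id2 led in Runx1+ IAHCs, with Id1 first by TPM and Id2 first (44.6% against 39.6%) per longest coding transcript.

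Among the E proteins, Tcf3 made up 66.8% of the summed TPM in Runx1+ IAHCs, 70.6% in Runx1- IAHCs, 42.5% in HECs and 41.0% in ECs. Tcf4 made up 13.6% in Runx1+ IAHCs, 18.8% in Runx1- IAHCs, 13.6% in HECs and 36.6% in ECs, and Tcf12 made up 19.6%, 10.6%, 43.9% and 22.5% in that order. Tcf3 and Tcf12 did not differ beyond counting error in HECs, where their ratio was 0.967 (0.845 to 1.11), against 1.82 (1.68 to 1.98) in ECs. The ratio of Tcf3 to Tcf4 was 4.91 in Runx1+ IAHCs (4.47 to 5.39), 3.75 in Runx1- IAHCs (3.53 to 3.99), 3.12 in HECs (2.70 to 3.61) and 1.12 in ECs (1.04 to 1.20). These shares rest on the length by which reads are divided, since the union of annotated exons is 27382 bases for Tcf4, 15529 for Tcf12 and 4039 for Tcf3, and the longest coding transcript is 8577, 6299 and 2950 bases. With the longest coding transcript, Tcf4 led in ECs at 51.2% and Tcf12 in HECs at 51.7%. The differences of 1 gene between libraries do not rest on that length.

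The ratio of summed Id to summed E protein levels was 4.47 in Runx1+ IAHCs (4.19 to 4.78), 8.68 in Runx1- IAHCs (8.32 to 9.05), 5.16 in HECs (4.76 to 5.59) and 15.5 in ECs (14.9 to 16.0). ECs had the highest ratio, and the intervals of the 2 Runx1(GFP)+ populations overlapped at their ends. Without Id3 and Tcf3, the most abundant gene of each family over the 4 libraries, it was 11.7 in Runx1+ IAHCs, 7.78 in Runx1- IAHCs, 4.36 in HECs and 10.2 in ECs, so that the order of the libraries rests on these genes. In HECs both families were low, at 76.0 TPM for the Id genes and 14.7 TPM for the E protein genes, against 930 TPM and 60.2 TPM in ECs. Runx1+ IAHCs had 124 TPM of Id and 27.7 TPM of E protein transcripts, against 528 TPM and 60.8 TPM in Runx1- IAHCs. RNA levels do not give the amount of protein, so that this ratio does not measure how much E protein is free of Id protein.

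**Figure D3:**
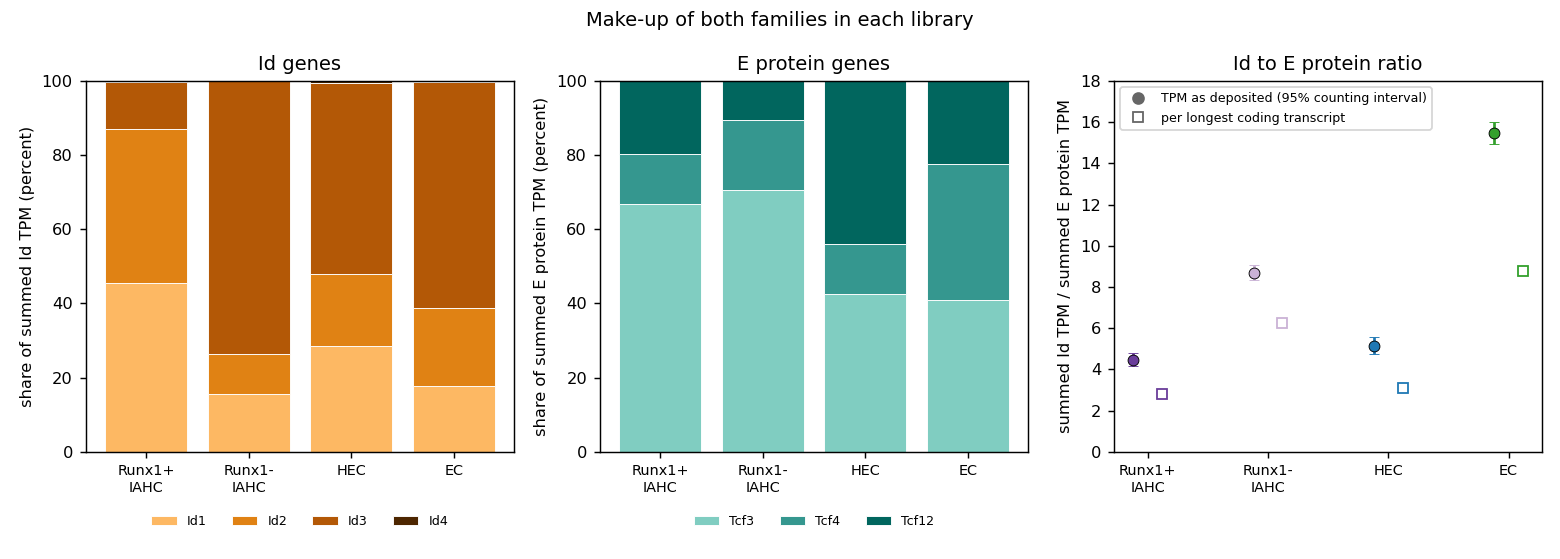
Shares of each Id gene in the summed Id TPM (left), of each E protein gene in the summed E protein TPM (middle), both in percent, and the ratio of the 2 sums in each library (right), with circles for TPM as deposited, their 95% counting intervals and squares for values per longest coding transcript. Id3 takes 12.9% of the Id transcripts in Runx1+ IAHCs and 51.3% or more in the other libraries, and ECs have the highest ratio by both measures (15.5 and 8.77).

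Tal1 and Lyl1, bHLH partners of the E proteins, were higher in HECs than in ECs, whereas the E protein genes were lower in HECs. Of 14 listed genes, 5 were at 10 TPM or more in HECs or ECs, and 2 of them, Tal1 and Lyl1, were called higher in HECs and 0 lower (median 0.90), beside 8.87% of all genes called higher and 9.24% lower. Ldb1, which joins Lmo2 to other factors, was lower in HECs (-1.10) and not called. Tal1, the bHLH factor that pairs with E proteins at the onset of blood formation, was at 26.3 TPM in Runx1+ IAHCs against 4.75 TPM in Runx1- IAHCs, and 125 TPM in HECs against 25.1 TPM in ECs. It was 5.00-fold higher in HECs than in ECs (4.66 to 5.36) and 5.56-fold higher in Runx1+ than in Runx1- IAHCs (4.77 to 6.52). Its close relative Lyl1 was at 75.9 TPM in Runx1+ IAHCs against 41.6 TPM in Runx1- IAHCs, and 134 TPM in HECs against 30.5 TPM in ECs. The sum of Tal1 and Lyl1 over the sum of the E proteins was 3.69 in Runx1+ IAHCs (3.46 to 3.94), 0.763 in Runx1- IAHCs (0.706 to 0.824), 17.6 in HECs (16.5 to 18.7) and 0.923 in ECs (0.864 to 0.986). Per longest coding transcript this ratio was 2.04 in Runx1+ IAHCs, 0.418 in Runx1- IAHCs, 8.55 in HECs and 0.411 in ECs. The ratios to partners, and those between genes of 1 family above, were chosen after their values were seen. By TPM, HECs were the only library in which these partners outnumbered the Id transcripts, with an Id to partner ratio of 0.294 (0.277 to 0.312), against 16.8 (15.8 to 17.8) in ECs. The ratio was 1.21 in Runx1+ IAHCs (1.14 to 1.29), against 11.4 (10.6 to 12.2) in Runx1- IAHCs. Tal1 and Lyl1 are also transcribed in megakaryocytes and erythroid cells, whose markers were highest in HECs, and the part of these cells was not tested.

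Of the partner list, 7 genes could be compared between Runx1+ and Runx1- IAHCs, with 2 called higher and 2 lower (median 0.85), beside 5.60% of all genes called higher and 17.5% lower (median -0.53). The corepressor gene Cbfa2t3, which encodes the E protein cofactor Eto2, was at 20.2 TPM in Runx1+ IAHCs and 0.386 TPM in Runx1- IAHCs, 53.9-fold higher (37.4 to 80.8). Its relative Cbfa2t2 went the other way, at 4.01 TPM in Runx1+ IAHCs and 40.6 TPM in Runx1- IAHCs, 10.2-fold lower (9.10 to 11.4). Msc, a repressor bHLH gene, had no read in Runx1+ IAHCs and 304 reads (12.9 TPM) in Runx1- IAHCs. At the floor of 3 reads it was 111-fold lower in Runx1+ IAHCs (37.7 to 542.5). Lmo2, which bridges Tal1 and E proteins to GATA factors, was at 143 TPM in Runx1+ IAHCs against 38.1 TPM in Runx1- IAHCs, and 175 TPM in HECs against 125 TPM in ECs. Between Runx1+ IAHCs and HECs 5 of the list were compared, with 0 called higher and 1, Tal1, lower, beside 2.79% and 6.22% of all genes. Between Runx1- IAHCs and ECs 7 were compared, with 2 called higher and 2 lower (median -1.14), beside 20.9% and 6.39% of all genes (median 0.71).

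Many BMP-SMAD genes and targets were lower in HECs than in ECs and in Runx1+ than in Runx1- IAHCs, as Id3 was. The list had 18 genes, of which 16 were in the table, and Bmp4 and Bmpr1a were not analysed here. In HECs against ECs 9 were compared, with 6 called lower and 0 higher and a median difference of -2.93, beside 9.24% of all genes called lower, 8.87% higher and a median of 0.12. Hey1, a bHLH repressor that Notch and BMP signals activate, was at 5.31 TPM in HECs against 80.7 TPM in ECs, 15.3-fold lower (13.1 to 17.9). The receptor gene Bmpr2 was at 1.19 TPM in HECs against 17.5 TPM in ECs, 14.7-fold lower (12.8 to 17.0). Smad1, which carries the BMP signal to the nucleus, was 10.7-fold lower in HECs (9.17 to 12.5), and Smad7, which inhibits it, 13.7-fold lower (10.3 to 18.6).

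In Runx1+ against Runx1- IAHCs 7 genes of this list were compared, with 4 called lower and 0 higher (median -3.09), beside 17.5% of all genes called lower and 5.60% higher (median -0.53). Hey1 was at 0.932 TPM in Runx1+ IAHCs and 49.0 TPM in Runx1- IAHCs, 54.2-fold lower (37.8 to 80.7), and Acvrl1, an endothelial receptor for BMP9, was at 0.414 TPM and 17.2 TPM in the same order, 44.0-fold lower (27.3 to 76.0). Eng, its coreceptor, was 9.34-fold lower in Runx1+ IAHCs (8.39 to 10.4). Smad4, the SMAD shared by BMP and TGF-beta signals, was at 16.0 TPM in Runx1+ IAHCs and 16.7 TPM in Runx1- IAHCs. Between Runx1+ IAHCs and HECs only 2 genes reached 10 TPM, with 0 called, and between Runx1- IAHCs and ECs 10 were compared, with 1 called higher and 2 lower (median -1.07), beside 20.9% of all genes called higher and 6.39% lower (median 0.71). Id2, whose window holds the GGCGCC shown above, and Id3, whose window held none, were both called lower in HECs with these genes. Whether a GGCGCC in a window bears on these differences was not tested. Several of them, among them Acvrl1, Eng and Hey1, are themselves endothelial, and the endothelial markers stated above moved the same way.

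Of 12 lymphoid genes that E proteins are known to activate, 9 were in the table, and Il7r, Vpreb1 and Igll1 were not analysed here. Most were under 10 TPM, and 2 or fewer could be compared in each pair. Rag2, part of the recombinase of lymphocyte receptor genes, had 139 reads (4.02 TPM) in Runx1+ IAHCs and no read in Runx1- IAHCs, HECs or ECs. Rag1, the other part, had 34 reads (0.520 TPM) in Runx1+ IAHCs and likewise none in the other libraries. Cd79b, a chain of the B cell receptor complex, was at 73.0 TPM in Runx1+ IAHCs, had no read in Runx1- IAHCs, and was at 24.9 TPM in HECs against 16.3 TPM in ECs. It was called higher in Runx1+ than in Runx1- IAHCs (6.10) and lower in Runx1- IAHCs than in ECs (-4.01). Foxo1, a forkhead factor of B cell development, was called lower in HECs than in ECs (7.21-fold, 6.45 to 8.07; -2.58), and its difference between Runx1+ and Runx1- IAHCs was -1.21. Ebf1, the B cell factor that acts with E2A, was at 0.232 TPM in Runx1+ IAHCs against 5.85 TPM in Runx1- IAHCs, and 0.785 TPM in HECs against 5.53 TPM in ECs.

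The symbols Tcf3 and Tcf4 are also old names of the HMG-box genes Tcf7l1 and Tcf7l2, which act in Wnt signalling and are separate genes. Of 4 listed HMG-box genes, Tcf7l1 and Tcf7l2 were the 2 compared between HECs and ECs. Both were called lower in HECs, as Tcf4 was, beside 9.24% of all genes called lower and 8.87% higher. Tcf7l2 was at 0.767 TPM in HECs against 15.1 TPM in ECs, and Tcf7l1 was at 0.171 TPM in HECs against 11.8 TPM in ECs. Between Runx1+ and Runx1- IAHCs, Lef1 and Tcf7l2 were the 2 compared, and both were called lower in Runx1+ IAHCs. Over all genes 17.5% were called lower and 5.60% higher. Lef1 was at 0.0335 TPM in Runx1+ IAHCs against 12.7 TPM in Runx1- IAHCs. The E protein gene Tcf4 was not called in that pair. None of the HMG-box genes was called between Runx1- IAHCs and ECs, among 3 compared, beside 20.9% of all genes called higher and 6.39% lower.

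**Figure D4:**
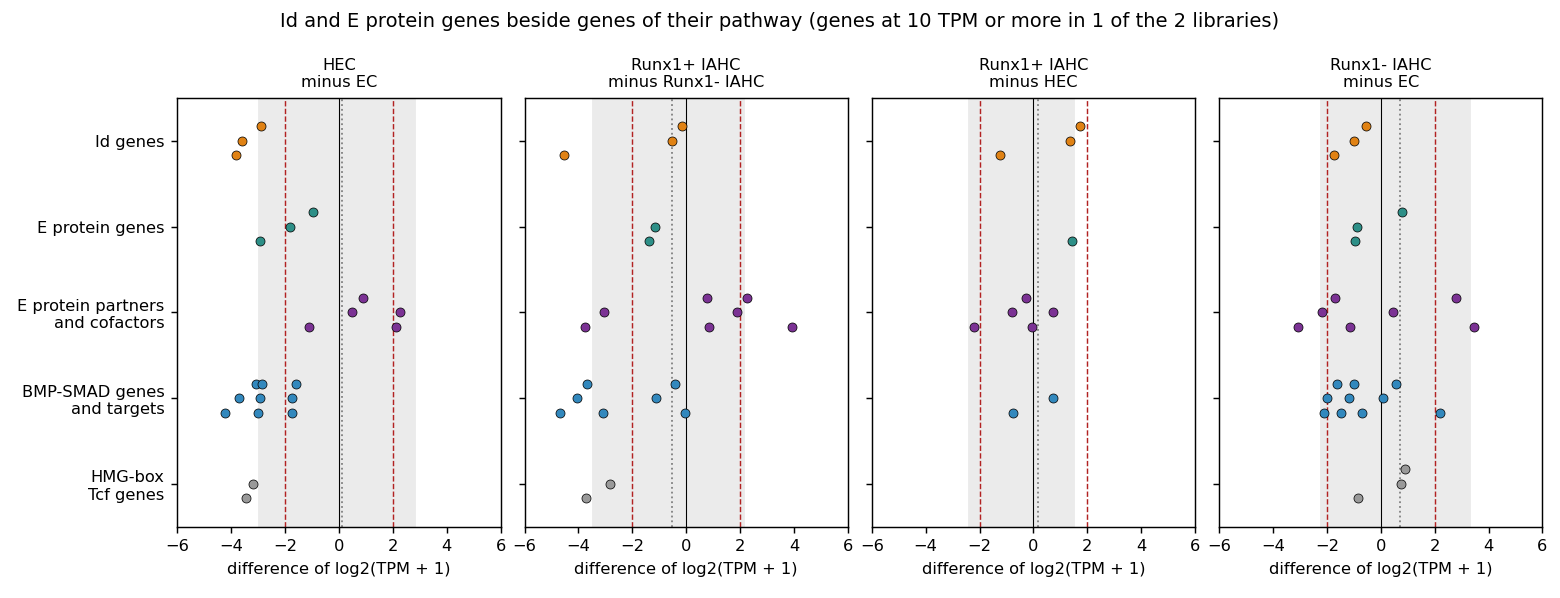
Differences of log2(TPM + 1) in the 4 comparisons for the Id genes, the E protein genes and 3 lists of related genes, with 1 point for each gene whose higher level was at least 10 TPM, 4-fold limits (dashed), the 5th to 95th percentile of all genes (grey) and their median (dotted). In HECs against ECs the BMP-SMAD genes lie on the side of the Id genes (median -2.93) and the partners of the E proteins centre on the other side (median 0.90).

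Likeness of pattern was measured as the root mean square difference of log2(TPM + 1), each gene centred on its mean over the 4 libraries. The patterns of Id1 and Id2 lay 0.305 apart and those of Id1 and Tcf4 0.333 apart, whereas Id3 lay 1.54 from Id1 and 1.61 from Id2. Among 7676 genes that reached 10 TPM somewhere, the nearest to Id3 were Adam19 (0.0917), Hey1 (0.177) and Igfbp2 (0.203). Adam19, a membrane protease, was at 0.0414 TPM in Runx1+ IAHCs against 19.1 TPM in Runx1- IAHCs, and 1.14 TPM in HECs against 30.2 TPM in ECs. This scale understates the differences of low genes. Between the IAHC libraries the folds of Adam19 and Hey1 were larger than that of Id3, although their patterns lay near it. Among the nearest to Id1 were Retreg3 (0.0401) and Gatm (0.129), and nearest to Id2 were Iffo2 (0.137), Zeb1 (0.148), a repressor that binds E-box-like sites, and Tgfbr2 (0.150), a TGF-beta receptor.

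For Tcf3 the nearest included Cdc7 (0.0489), a kinase of DNA replication, and Ubox5 (0.0964). Cdc7 was at 15.9 TPM in Runx1+ IAHCs against 34.5 TPM in Runx1- IAHCs, and 4.94 TPM in HECs against 21.4 TPM in ECs. For Tcf4 they were Arap3 (0.0330), Fgd5 (0.0885) and Ptms (0.0913), of which Arap3 and Fgd5 are regulators of small GTPases in endothelium. For Tcf12 they were Pcgf3 (0.0756), Cep120 (0.0889) and Bag3 (0.0900). With 4 libraries many genes have a close neighbour, and the distances are descriptions.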

How the data were processed

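RNA was measured in 4 sorted populations with 1 library each. According to the study's methods, template switching gave cDNA from a fraction of the lysed cells, with no mark of strand. A transposase kit and short single-read sequencing followed. Alignment was to GRCm38 with HISAT2 2.0.4 (also named in the submitters' processing notes) and counting in union mode on an earlier GENCODE release than the one used below. The labels name a SMARTER kit. The authors deposited TPM values on a linear scale. The columns of 9 other populations were not used.

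No TPM value was 0. Multiplied by exonic length (GENCODE M21, same build), the values of 49371 genes (96.4%) were whole multiples of the commonest value of each library within 0.01 reads. These multiples, less 1 read added to every gene, are the recovered reads and include all 7 genes. Levels in TPM are as deposited, with that read included. Levels had exact Poisson intervals, ratios of reads Clopper-Pearson intervals and ratios of sums delta-method intervals, at 95%, and a floor of 3 reads. PCR copies carried no molecular identifiers, so these cover counting error only. Genes whose higher level was at least 10 TPM were compared on log2(TPM + 1), and called from a difference of 2. With 1 library per population there was no test.

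Named are the 7 genes, members of 4 lists of related genes, markers, and the 3 genes nearest in pattern to each of the 7 at 10 TPM, without predicted or cDNA-clone symbols. A few of the genes so named are not reported here. The 7 genes and the lists were chosen with earlier results of these data known. Alternatives were other pseudocounts, minimum levels, scalings and lengths. The calculations were tested on simulated libraries. Python 3.11.15, pandas 2.3.3, numpy 2.4.6, scipy 1.17.1 and matplotlib 3.10.9 were used.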

Additional observations from a re-analysis of the deposited data

Results flagged for a closer look

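Id1 and Id2 differed between ckit+ and ckit- cells in opposite directions on the 2 sides of the Runx1 reporter. Between the Runx1(GFP)+ populations, the log2 difference of Runx1+ IAHCs from HECs was 1.34 for Id1 and 1.72 for Id2. Between the Runx1(GFP)- populations, that of Runx1- IAHCs from ECs was -1.01 for Id1 and -1.74 for Id2. Each value rests on 1 library against 1, and whether the 2 differences differ was not tested.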

How the results depend on the processing

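The number of genes called among the Id and E protein genes was within 1.5 times the main count under all settings run for HECs against ECs, Runx1+ against Runx1- IAHCs and Runx1+ IAHCs against HECs. For Runx1- IAHCs against ECs it was 1 and not 0 with no minimum level and with a minimum of 1 TPM (Id4), and 1 with scaling by median ratios (Id2, at -2.15). With a pseudocount of 5, Tcf4 in HECs against ECs was at -1.95, which left 3 calls and not 4. Of 136 differences under alternatives, 1 changed sign (Id2 between the IAHC libraries, 0.20 with median ratios) and 2 changed side of the 4-fold limit. Median ratios moved the median of all genes to 0.27 for HECs against ECs, -0.11 for Runx1+ against Runx1- IAHCs, -0.04 for Runx1+ IAHCs against HECs and 0.22 for Runx1- IAHCs against ECs. The calls over all genes became 669 higher and 1014 lower, against 489 and 1524 as deposited, for Runx1+ against Runx1- IAHCs, and 1214 and 878, against 1867 and 571, for Runx1- IAHCs against ECs. With a pseudocount of 5 or no minimum level, the share of all genes called in the 4 comparisons was 4.73% to 14.6% and 1.87% to 6.89%, against 9.01% to 27.3%. The summed level of the 7 genes was 469 TPM in Runx1- IAHCs (589 TPM as deposited), 106 TPM in HECs (90.7 TPM) and 1047 TPM in ECs (990 TPM) with median ratios, and 552 TPM in Runx1- IAHCs and 1079 TPM in ECs when mitochondrial, ribosomal protein and hemoglobin genes were left out of the total.

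The Id to E protein ratio was 0.838 in Runx1+ IAHCs, 1.59 in Runx1- IAHCs, 0.736 in HECs and 1.86 in ECs in reads not divided by length. It was 2.81, 6.27, 3.08 and 8.77 in the same order with the longest coding transcript as length, an alternative added after the data were seen, and 11.7, 7.78, 4.36 and 10.2 without the most abundant gene of each family, which put Runx1+ IAHCs highest. In the same order Id3 took 15.7%, 78.1%, 57.5% and 66.0% of the Id family with the longest transcript, and 74.8% in Runx1- IAHCs and 60.0% in ECs in reads. Tcf3 took 49.9%, 52.9%, 27.7% and 24.6% of the E proteins with the longest transcript, and 28.5%, 29.6%, 14.0% and 10.9% in reads. Shares without the most abundant gene give no value for that gene and were not run. No paired analysis was possible because each population had 1 library, and for the same reason no replicate could be left out.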
